A study of Mus musculus with 6 samples.

Results

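Expression of the kinesin motor genes was compared between Hes1-GFP-positive and Hes1-GFP-negative myeloerythroid progenitors of mouse bone marrow. A gene was included when its symbol is Kif followed by a digit and at least 1 probe set, a set of short array oligonucleotides that reports 1 transcript, names that gene alone. This gave 37 genes, reported by 99 probe sets, out of 18193 genes and 45037 probe sets on the array, and all 37 symbols matched the RefSeq gene table. Genes were picked by name, not by measured values, but this rule and the role classes below were set with earlier results of these data known. The study hybridized RNA from 2 groups to Affymetrix arrays, with 3 arrays of GFP-positive cells and 3 arrays of GFP-negative cells. Both groups were lineage-negative, cKit-positive and Sca1-negative marrow cells sorted from male mice 6 weeks of age with the genotype Hes1 GFP/WT, so the control cells carry the reporter allele too. Hes1 is a transcriptional repressor that responds to Notch signalling. The labels do not give how the reporter allele was built, nor whether replicates came from separate mice, so p-values reflect how much these samples differ within a group, and that may be technical variation alone.

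Kinesins are motor proteins that use ATP to move along microtubules or to take apart their ends. Mitotic kinesins build the spindle, position chromosomes and drive the final separation of daughter cells, and in cycling cells their transcripts accumulate towards division. Transport kinesins carry vesicles, endosomes, mitochondria and ciliary cargo, often through light chains or adaptor proteins. Marrow progenitors divide often, and proliferating cells in general use the mitotic members. By these textbook roles the 37 genes were divided into 12 mitotic kinesins, 13 transport kinesins and 12 others, which act at cilia, in Hedgehog signalling or at microtubule ends or have no single established role.

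Values are log2 intensities, called levels here, and a change is the mean level in GFP-positive cells minus that in GFP-negative cells. Each gene is given by its probe set of highest mean, and levels of different probe sets are not compared. A gene is called higher or lower when limma's adjusted p over all 45037 probe sets was under 0.05. Hes1 itself had levels of 7.20, 7.12 and 7.13 in GFP-positive cells, against 5.74, 6.01 and 5.90 in GFP-negative cells, a change of 1.27 (SE 0.10, adjusted p = 0.00141). All 3 GFP-positive arrays were above all GFP-negative arrays. Pairs of arrays correlated at r = 0.989 to 0.993 within a group and 0.973 to 0.979 between groups, across probe sets.

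Other cell identity genes also separated the groups. All 5 erythroid progenitor markers (Gata1, Klf1, Epor, Car1 and Tfrc) were higher, with summed intensities of 35000.2 to 38149 in GFP-positive cells and 23695 to 24208 in GFP-negative cells. All 6 myeloid progenitor markers (Mpo, Elane, Prtn3, Ctsg, Cebpa and Csf1r) were lower, with sums of 26805 to 33568 in GFP-positive cells and 58053 to 62248 in GFP-negative cells. Kit, the surface receptor used in the sort, did not pass the test (change -0.25, adjusted p = 0.138). Of the markers of other cells, 0 of 3 for megakaryocytes, 0 of 3 for mature neutrophils, 0 of 4 for stroma and neurons, 1 of 4 for B cells and plasma cells (Ighm, lower) and 1 of 3 for T and natural killer cells (Nkg7, lower) were called. Arrays give no zero, and Cd3g, Cdh5 and Snap25 were below the array median on every array. The summed intensities of some of these lists differed between the groups without overlap. The neutrophil sums were 1565 to 4748 in GFP-positive cells and 262 to 1550.3 in GFP-negative cells, and the megakaryocyte sums 4859 to 5680.5 in GFP-positive cells and 3561 to 4509 in GFP-negative cells. Pf4, with a change of 0.51, weighed most in the megakaryocyte sums, while Itga2b and Gp9 had changes of -0.42 and -0.03. The stroma and neuron sums were 173 to 442 in GFP-positive cells and 87.6 to 119 in GFP-negative cells. The highest was on GFP-positive array 2, where Col1a1 had a level of 8.27, against 6.14 and 6.04 on GFP-positive arrays 1 and 3. The T and natural killer sums were 2483 to 3925 in GFP-positive cells and 7059 to 7558 in GFP-negative cells. Nkg7, with a change of -1.16, made up most of them, while Cd3e and Cd3g had changes of 0.79 and -0.15, neither called. The B and plasma cell sums overlapped, at 434 to 3055 in GFP-positive cells and 997 to 2481 in GFP-negative cells. The part of these cell identities in the kinesin results was not tested, and in bulk samples fewer cells of a type and less RNA per cell cannot be told apart.

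GFP-positive array 1 and GFP-negative array 3 stood apart by antibody transcripts. Jchain, which joins secreted antibody units, had levels of 8.65, 3.69 and 3.64 in GFP-positive cells and 3.88, 4.08 and 8.85 in GFP-negative cells. Results are therefore also given without these 2 arrays, a comparison of 2 arrays with 2.

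Among the kinesins, the mitotic members were mostly higher in GFP-positive cells, whereas nearly all transport members and others did not pass the test. Of the 12 mitotic kinesins, 8 were called higher and 0 lower, where 8.15% of all genes were higher and 9.92% were lower. Of the 13 transport kinesins, 0 were higher and 1, Kif17, was lower. Of the 12 other kinesins, 0 were higher and 1, Kif21b, was lower. Over the 37 genes that made 10 calls, against 18.1% of all genes called in either direction. At an unadjusted p under 0.05, limma gave 9 higher and 0 lower mitotic kinesins, 1 higher and 6 lower transport kinesins, and 2 higher and 1 lower of the others, where 22.0% of all genes were higher and 15.1% lower.

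The median change was 0.74 for the mitotic kinesins, with a range of -0.07 to 1.70, and 0.11 for all genes. It was 0.02 for the transport kinesins, with a range of -1.90 to 0.63, and 0.06 for the others, with a range of -0.97 to 0.48. The mitotic median stayed between 0.61 and 0.85 under all 17 alternative ways of processing that gave one. Alternatives that alter only the variance or the test leave every change as it is, so their medians could not differ. The transport median lay close to 0 and changed sign with the choice of probe sets and with the array left out, so no direction is given for the transport kinesins as a group. Groups did not overlap for 9 of 12 mitotic, 7 of 13 transport and 3 of 12 other kinesins, against 45.6% of all genes. Among members above the array median on all 6 arrays, 7 of 9 mitotic, 0 of 10 transport and 0 of 4 other kinesins were higher, with 0, 0 and 1 lower.

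**Figure D1:**
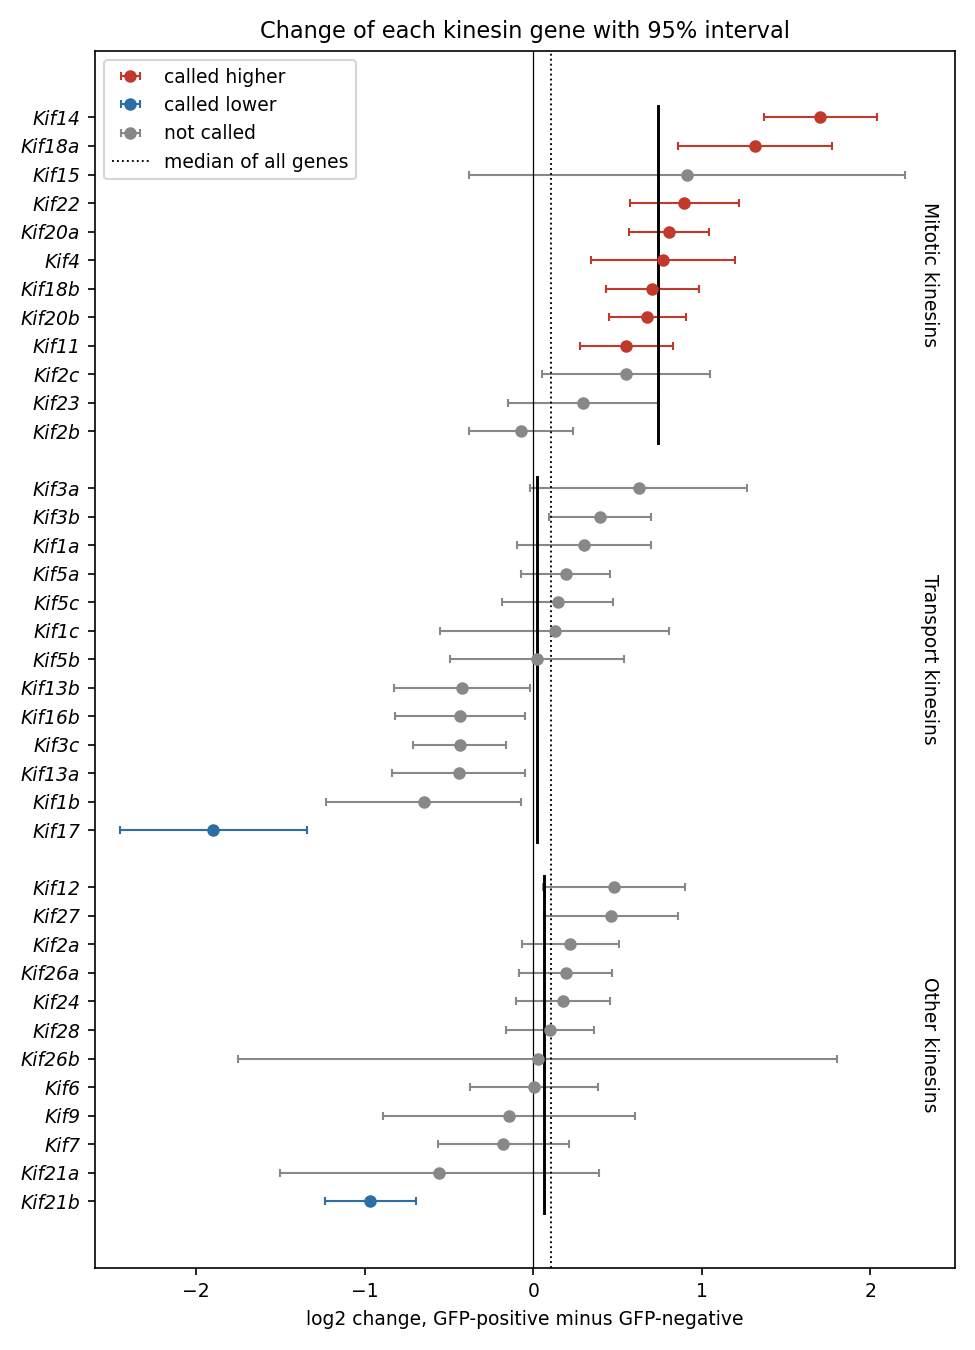
Log2 change, GFP-positive minus GFP-negative, of each of the 37 kinesin genes with its 95% confidence interval from limma, grouped by role, with the median of all genes (0.11) as a line. Solid bars mark the class medians of 0.74, 0.02 and 0.06, and called genes, in colour, lie to the right for 8 mitotic kinesins, up to 1.70 for Kif14, and to the left for Kif17 (-1.90) and Kif21b (-0.97).

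Promoters are shown for a few of these genes because most mitotic members moved in 1 direction and many cell cycle genes carry a cell cycle homology region (CHR) or CCAAT boxes close to their start. Windows of 250 bases before to 50 bases after the start were searched on both strands for the CHR core TTTGAA and for CCAAT, whose matches can share at most 1 base at an edge. A gene with several windows was counted when any of them held the motif. RefSeq promoter sequences of build GRCm38.p6 were matched for 31 of the 37 genes, and Kif20a, Kif5a, Kif5b, Kif13b, Kif21b and Kif28 had none in the table used. The 120 bases before the start are printed 5′ to 3′ on the gene's strand, in lower case, with capitals where either motif is read on the opposite strand, as TTCAAA for the CHR core and ATTGG for CCAAT. Kif11 and Kif22 are shown as the mitotic genes with several probe sets, all of them called. Kif15 and Kif2c are shown as mitotic genes not called by their probe set of highest mean, and Kif17 as the gene of greatest fall. The mitotic genes shown are also the only ones with the CHR core inside the 120 printed bases. Its presence in every mitotic sequence printed therefore reflects which genes are shown. Kif23 and Kif2b, likewise not called by their probe set of highest mean, are not shown. Nor are the called genes Kif4, Kif14 and Kif18b, with 1 probe set each, or Kif18a and Kif20b.
Kif11, chr19:37376262-37376381, plus strand: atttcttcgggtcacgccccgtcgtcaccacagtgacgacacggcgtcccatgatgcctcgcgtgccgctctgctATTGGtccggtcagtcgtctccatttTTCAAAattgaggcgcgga
Kif22, chr7:127042421-127042540, minus strand: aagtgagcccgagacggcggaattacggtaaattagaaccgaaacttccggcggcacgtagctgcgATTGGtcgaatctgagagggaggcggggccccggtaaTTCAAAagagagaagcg
Kif15, chr9:122950961-122951080, plus strand: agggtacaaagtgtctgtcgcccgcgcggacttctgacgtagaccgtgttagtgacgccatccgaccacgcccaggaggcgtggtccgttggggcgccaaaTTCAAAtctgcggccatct
Kif2c, chr4:117178773-117178892, minus strand: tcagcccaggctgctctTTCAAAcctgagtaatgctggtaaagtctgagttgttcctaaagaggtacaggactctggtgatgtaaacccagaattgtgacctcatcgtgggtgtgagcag
Kif17, chr4:138262131-138262250, plus strand: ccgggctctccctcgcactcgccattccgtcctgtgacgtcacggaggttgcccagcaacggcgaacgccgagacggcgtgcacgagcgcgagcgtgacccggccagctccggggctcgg

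The CHR core was present in 9 of 11 mitotic windows (81.8%), 1 of 10 transport windows and 2 of 10 other windows, against 20.2% of all 27025 genes with a window. The mitotic genes with a window and no match were Kif18a and Kif2b. CCAAT was present in 7 of 11 mitotic (63.6%), 3 of 10 transport and 4 of 10 other windows, against 41.1% of all genes. Both motifs were present in 6 of 11 mitotic (54.5%), 0 of 10 transport and 2 of 10 other windows, against 8.97% of all genes. The match nearest the start began at base -19 in Kif11 and Kif15 and at base -17 in Kif22, counting back from the start, and at base -103 in Kif2c. In the other mitotic genes with a CHR match, the core lay outside the printed bases. It began at base -228 in Kif14, and after the start in Kif23, Kif18b, Kif20b and Kif4, at bases 3, 4, 8 and 20. A match is a description of letters and does not show that a factor binds there.

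Several mitotic kinesins that act on the spindle and on chromosomes were higher in GFP-positive cells. Kif11, the motor that pushes the spindle poles apart, had levels of 11.44, 11.67 and 11.49 in GFP-positive cells, against 10.97, 11.12 and 10.85 in GFP-negative cells. The groups did not overlap, and the change was 0.55 (SE 0.11, adjusted p = 0.0263). Its other 2 probe sets gave larger changes of 0.96 and 1.01, and all 3 were called higher. Kif22, a chromosome-bound motor that pushes chromosome arms towards the spindle equator, had levels of 11.41, 11.37 and 11.18 in GFP-positive cells, against 10.63, 10.42 and 10.22 in GFP-negative cells. Every GFP-positive array was again higher, with a change of 0.90 (SE 0.13, adjusted p = 0.00869), or 1.86-fold on the linear scale. All 3 Kif22 probe sets were called higher, with changes of 0.48 to 0.90. The probe set of highest mean carries a suffix for probes that can match more than 1 transcript, and the probe set without it gave 0.89 (adjusted p = 0.0133).

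Kif18a, which shortens the microtubules attached to chromosomes and damps their movement, had levels of 9.05, 9.59 and 9.22 in GFP-positive cells, against 8.05, 8.18 and 7.69 in GFP-negative cells. The change of 1.32 (SE 0.19, adjusted p = 0.00759) was a 2.49-fold difference without overlap. The second Kif18a probe set was dim on every array and gave a change of 0.01. Kif18b, a related motor that limits the length of microtubules reaching the cell edge, had levels of 8.45, 8.74 and 8.51 in GFP-positive cells, against 7.79, 7.98 and 7.82 in GFP-negative cells. It was 1.63-fold higher, with a change of 0.71 (SE 0.11, adjusted p = 0.0115). Kif4, a chromosome-bound motor that also organises the central spindle, had levels of 8.81, 9.40 and 9.09 in GFP-positive cells, against 8.48, 8.38 and 8.13 in GFP-negative cells. These groups did not overlap either, but the change of 0.77 (SE 0.18, adjusted p = 0.0367) was the closest to the threshold among the 8 called genes.

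Mitotic kinesins of cell separation were also higher, and Kif14 had the largest rise among the 37 kinesins. Kif14, which acts at the bridge between daughter cells, had levels of 6.88, 6.51 and 6.92 in GFP-positive cells, against 5.11, 4.96 and 5.14 in GFP-negative cells. Its change of 1.70 (SE 0.14, adjusted p = 0.00139) was a 3.26-fold difference, and each group was tight beside it. Kif14 rests on 1 probe set, which was below the array median in GFP-negative cells. Kif20a, which brings the Aurora B complex to the central spindle, had levels of 10.71, 10.67 and 10.55 in GFP-positive cells, against 9.94, 9.80 and 9.77 in GFP-negative cells. The groups were separated by more than their own ranges, with a change of 0.81 (SE 0.098, adjusted p = 0.00427). Kif20b, a related motor needed to complete division, had levels of 9.73, 9.69 and 9.70 in GFP-positive cells, against 9.09, 9.09 and 8.90 in GFP-negative cells. It was 1.60-fold higher, with a change of 0.68 (SE 0.095, adjusted p = 0.00686). Of its 4 probe sets, 2 were called, at 0.68 and 0.53, and the 2 dim ones gave 0.19 and -0.13, so the call was lost when all 4 were averaged (0.32, adjusted p = 0.0862).

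The other 4 mitotic kinesins did not pass the test by their probe set of highest mean. Kif2c, which takes apart microtubules at the centromere to correct wrong attachments, had levels of 9.43, 10.10 and 9.60 in GFP-positive cells, against 9.32, 8.89 and 9.27 in GFP-negative cells. The groups did not overlap, yet the GFP-positive arrays were spread and the adjusted p was 0.130 for a change of 0.55. A second Kif2c probe set, with levels of 8.30, 8.45 and 8.41 in GFP-positive cells and 7.60, 7.36 and 7.30 in GFP-negative cells, was called higher at 0.96 (adjusted p = 0.0038). The other Kif2c probe sets gave 0.72 and 0.06, so the result for this gene depends on the probe set. The probe set of highest mean carries a suffix for probes that can match more than 1 transcript, and the called one does not. Kif15, which can stand in for Kif11 on the spindle, had levels of 7.60, 7.05 and 6.27 in GFP-positive cells, against 7.06, 5.96 and 5.17 in GFP-negative cells. The groups overlapped and varied widely, and the 95% interval of the change of 0.91 ran from -0.38 to 2.20 (adjusted p = 0.293). Fitted with the replicate number as a block, Kif15 was called higher (adjusted p = 0.0432). Kif23, the motor of the centralspindlin complex, had levels of 9.66, 9.41 and 9.26 in GFP-positive cells, against 9.48, 9.07 and 8.90 in GFP-negative cells, a change of 0.29 (adjusted p = 0.320). Kif2b, a relative of Kif2c, was dim on all arrays, with a change of -0.07 (adjusted p = 0.727).

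**Figure D2:**
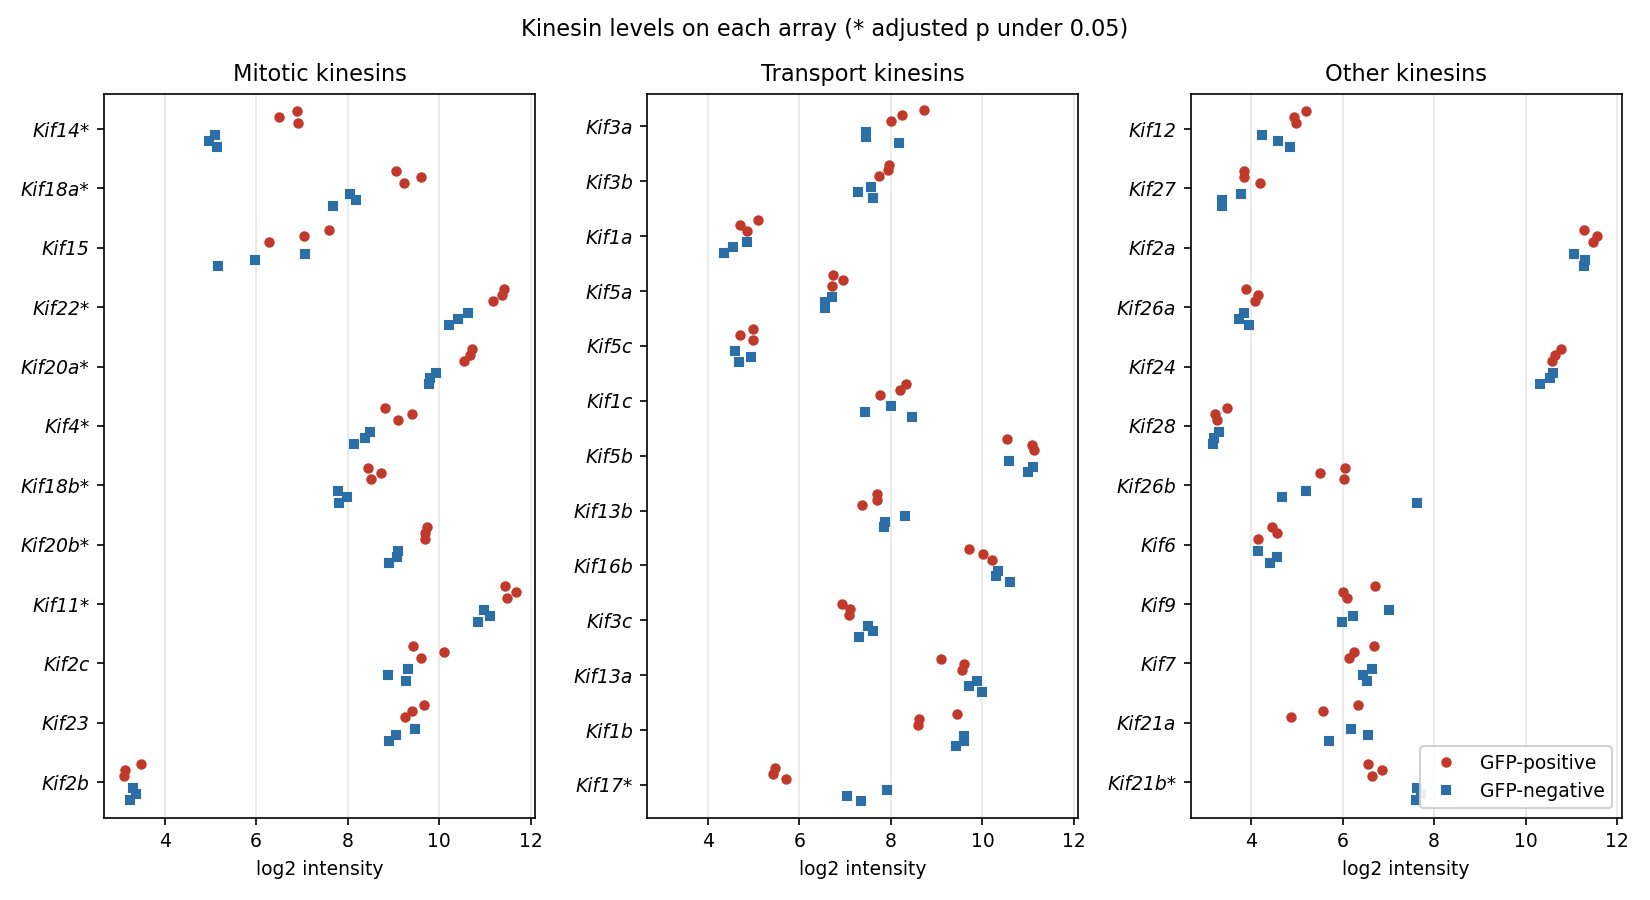
Log2 intensity of each kinesin gene on each of the 6 arrays, by role, with GFP-positive arrays as circles and GFP-negative arrays as squares, arrays 1 to 3 of a group from top to bottom. Circles lie to the right of all squares for the 8 called mitotic kinesins and to the left for Kif17 and Kif21b, while both groups share the range of 10.53 to 11.13 for Kif5b.

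How firmly single mitotic calls stand differed. Kif14, Kif18a, Kif18b, Kif20a, Kif20b and Kif22 were called whichever single array was left out. With 1 array left out, Kif4 was called in 1 of 6 comparisons, the one without GFP-positive array 1. Its adjusted p was 0.0820 without GFP-positive array 2, 0.0927 without GFP-positive array 3, and 0.0597, 0.0946 and 0.114 without GFP-negative arrays 1, 2 and 3. Kif11 was not called without GFP-positive array 2 (adjusted p = 0.0816) or 3 (0.0683), or without GFP-negative array 1 (0.0651) or 3 (0.0912). Without both arrays that held antibody transcripts, 2 of the 8 remained called, Kif14 (change 1.68, adjusted p = 0.0283) and Kif18a (change 1.29, adjusted p = 0.0371). The other 6 then had changes of 0.54 for Kif11 to 0.82 for Kif4, all above 0, and adjusted p-values of 0.0587 for Kif20a to 0.118 for Kif11. That comparison has 4 arrays, and over all genes it called 379 higher and 929 lower in place of 1482 and 1805.

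Summed over the class, the mitotic kinesins separated the groups on every array. With each gene centred on its own mean over the 6 arrays, the class mean was 0.41, 0.47 and 0.26 in GFP-positive cells, against -0.21, -0.38 and -0.55 in GFP-negative cells. The means were 0.38 ± 0.10 in GFP-positive cells and -0.38 ± 0.17 in GFP-negative cells (SD, n = 3 arrays each). The same measure for transport kinesins was -0.10 ± 0.04 in GFP-positive cells and 0.10 ± 0.08 in GFP-negative cells. The transport mean includes Kif17, whose change of -1.90 was the largest of that class. By contrast, 7 of the 13 transport changes were above 0, with a median of 0.02. For the others the measure was -0.01 ± 0.12 in GFP-positive cells and 0.01 ± 0.08 in GFP-negative cells. The mitotic median exceeded the transport median by 0.71. These are descriptions of lists, and the difference between the classes was not tested.

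Kif17 was the transport kinesin with the greatest difference. It carries receptor vesicles in mouse neurons and also moves in cilia. Its levels were 5.47, 5.43 and 5.70 in GFP-positive cells, against 7.92, 7.03 and 7.34 in GFP-negative cells. The GFP-negative arrays were all higher and more spread, and the change of -1.90 (SE 0.23, adjusted p = 0.00418) put GFP-positive cells 3.73-fold lower. All 3 Kif17 probe sets were called lower, at -1.90, -0.89 and -0.66. The call held with any single array left out, while without both arrays that held antibody transcripts the change was -1.91 with an adjusted p of 0.0590. In GFP-positive cells the probe set was below the array median. The 6 myeloid progenitor markers were lower on the same arrays, and their part in the Kif17 result was not tested.

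The remaining transport kinesins did not pass the test by their probe set of highest mean. Kif5b, the conventional kinesin heavy chain found in most cells, had levels of 10.53, 11.08 and 11.13 in GFP-positive cells, against 10.57, 11.10 and 10.99 in GFP-negative cells. The groups overlapped almost fully, and the 95% interval of the change of 0.02 ran from -0.49 to 0.54. Its other 5 probe sets gave changes of -0.36 to 0.23, none called. The neuronal heavy chains Kif5a and Kif5c had changes of 0.19 and 0.14, with adjusted p-values of 0.280 and 0.502.

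By their probe set of highest mean, endosome motors had lower levels in GFP-positive cells without passing the adjusted threshold. Kif16b, which moves early endosomes, had levels of 9.70, 10.01 and 10.21 in GFP-positive cells, against 10.34, 10.30 and 10.59 in GFP-negative cells. The groups did not overlap, the change was -0.43 (adjusted p = 0.124), and all 3 probe sets were below 0. When all probe sets of a gene were averaged, Kif16b was called lower (-0.47, adjusted p = 0.0124). Kif13a, which moves recycling endosomes, had levels of 9.09, 9.60 and 9.55 in GFP-positive cells, against 9.88, 9.71 and 9.98 in GFP-negative cells, a change of -0.44 (adjusted p = 0.124). Kif13b, its close relative, had a change of -0.42 (adjusted p = 0.144) without overlap. Of the 5 Kif13a probe sets 1 was above 0, at 0.21, and of the 4 Kif13b probe sets 1 was, at 0.26, with none called.

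Among the kinesins that carry mitochondria and vesicle precursors, Kif1b depended on 1 array. Its levels were 9.45, 8.62 and 8.60 in GFP-positive cells, against 9.59, 9.60 and 9.42 in GFP-negative cells. GFP-positive array 1 lay with the GFP-negative arrays, and the change of -0.65 had an adjusted p of 0.125. Without that array, which also held antibody transcripts, the change was -0.93 with an adjusted p of 0.00884, and without both arrays that held them it was -0.99 (adjusted p = 0.0291). The other 6 Kif1b probe sets gave -0.75 to 0.23, none called. Kif1a and Kif1c, relatives that also move vesicles, had changes of 0.30 and 0.13 with overlapping groups (adjusted p = 0.266 and 0.789).

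The kinesin-2 motors Kif3a, Kif3b and Kif3c, which drive transport in cilia, had changes on both sides of 0. Kif3a had levels of 8.73, 8.25 and 8.00 in GFP-positive cells, against 7.47, 7.46 and 8.18 in GFP-negative cells. GFP-negative array 3 overlapped the GFP-positive arrays, and the change of 0.63 had an adjusted p of 0.168. All 4 Kif3a probe sets had changes above 0, from 0.57 to 0.95, and 1 of them was called higher (0.85, adjusted p = 0.0434). Kif3a was also called when all its probe sets were averaged (0.75, adjusted p = 0.0151). Its partner Kif3b had levels of 7.96, 7.93 and 7.75 in GFP-positive cells, against 7.56, 7.28 and 7.61 in GFP-negative cells, a change of 0.40 without overlap (adjusted p = 0.0869). Kif3b was called higher when array medians were subtracted (adjusted p = 0.0398) or quantile normalization was repeated (adjusted p = 0.0293). Kif3c, an alternative partner of Kif3a, had levels of 6.93, 7.10 and 7.09 in GFP-positive cells, against 7.50, 7.60 and 7.31 in GFP-negative cells. Its groups did not overlap either, and the change of -0.44 had an adjusted p of 0.0521, while its second probe set gave 0.016. Kif3c was called lower when only the 22518 brightest probe sets were tested (adjusted p = 0.0324). The differences between these changes were not tested.

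Of the other kinesins, Kif21b alone was called. It is a motor that also restrains microtubule growth and is known from neurons and T cells. Its levels were 6.54, 6.86 and 6.64 in GFP-positive cells, against 7.62, 7.71 and 7.61 in GFP-negative cells. The groups were far apart beside their ranges, and the change of -0.97 (SE 0.11, adjusted p = 0.00356) put GFP-positive cells 1.95-fold lower. The second Kif21b probe set gave a change of 0.30 (adjusted p = 0.261), so the probe sets disagree in sign. The call held with any single array left out and without both arrays that held antibody transcripts (adjusted p = 0.0450). It was lost when both probe sets were averaged (-0.33, adjusted p = 0.0691) and against a fold floor of 1.5 (adjusted p = 0.144).

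Kif2a, which takes apart microtubule ends at spindle poles and in neurons, had levels of 11.27, 11.56 and 11.47 in GFP-positive cells, against 11.06, 11.29 and 11.28 in GFP-negative cells. Array 1 was the lowest in each group, and the change of 0.22 did not pass (adjusted p = 0.261), although all 5 probe sets were above 0. Kif24, which acts at centrioles, had levels of 10.76, 10.63 and 10.57 in GFP-positive cells, against 10.59, 10.53 and 10.31 in GFP-negative cells, with a change of 0.18 (adjusted p = 0.335). All 3 Kif24 probe sets were above 0, up to 0.86, and none was called. Kif7, the Hedgehog pathway motor, had levels of 6.69, 6.25 and 6.14 in GFP-positive cells, against 6.64, 6.45 and 6.52 in GFP-negative cells, with a change of -0.18 (adjusted p = 0.489). Both genes had overlapping groups. Kif12 and Kif27 had changes of 0.48 and 0.46 without overlap (adjusted p = 0.120 and 0.116), and both were dim. Kif26b had 1 array apart from the others, GFP-negative array 3 at 7.62, where GFP-negative arrays 1 and 2 had 5.20 and 4.67. The last 5, Kif6, Kif9, Kif21a, Kif26a and Kif28, had changes of -0.56 for Kif21a to 0.19 for Kif26a, none called.

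Calls over all probe sets, rather than 1 for each gene, were counted as well. Of all 99 kinesin probe sets, 15 were called higher and 4 lower, against 6.35% higher and 7.66% lower of all probe sets. The mitotic genes held 14 of the 15 higher calls among their 25 probe sets and 0 lower calls. The transport genes held 1 higher and 3 lower calls among 51, and the others 0 higher and 1 lower among 23. Of the 25 genes with several probe sets, 3 had every probe set called the same way, Kif11, Kif22 and Kif17, and 0 had calls in both directions. Probe sets of 1 gene are hybridized on the same arrays and are not replicates.

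**Figure D3:**
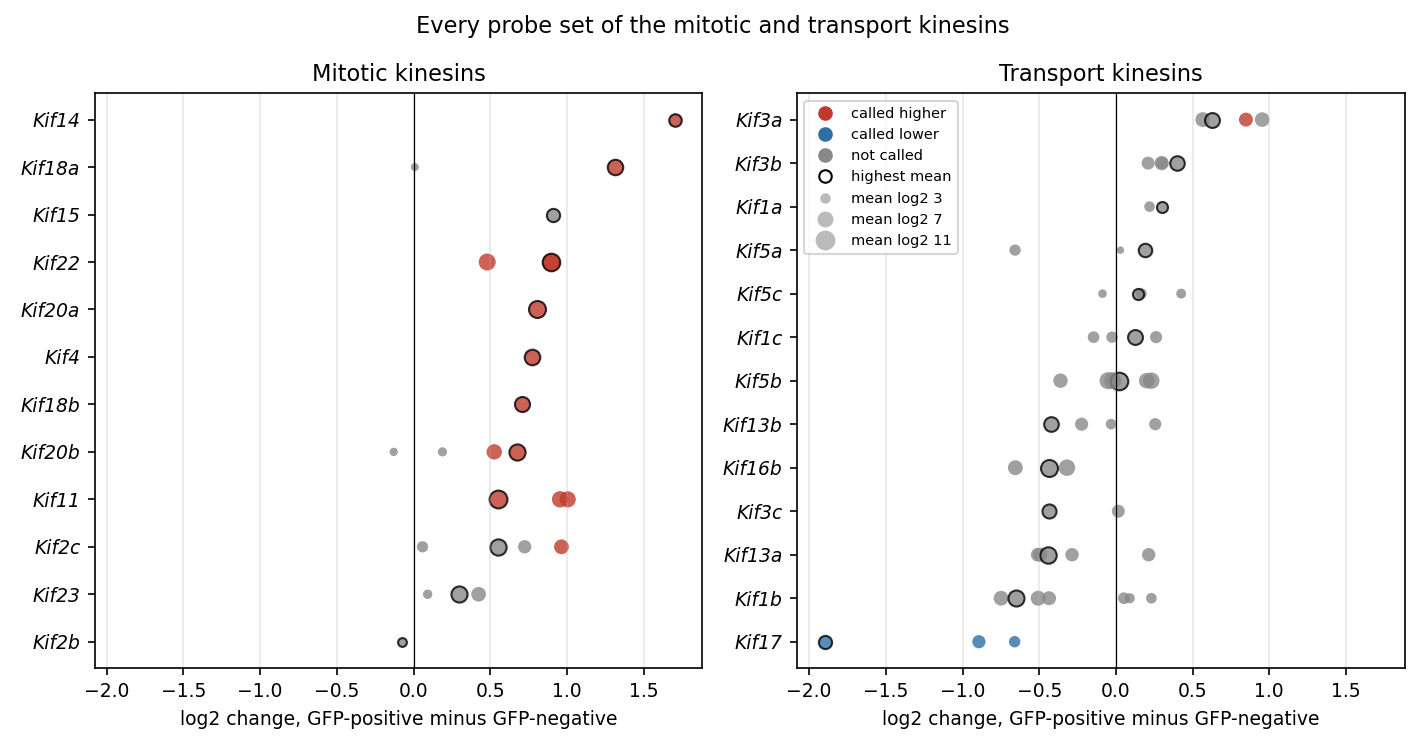
Log2 change, GFP-positive minus GFP-negative, of every probe set of the mitotic and transport kinesins, with the probe set of highest mean ringed, point size growing with the mean level and calls in colour. The 3 probe sets of Kif11 run from 0.55 to 1.01 and those of Kif17 from -1.90 to -0.66, while the 2 grey points of Kif20b left of its called ones lie at 0.19 and -0.13.

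Kinesins with other symbols were measured as a separate list. Of 5 such genes, 3 were called higher and 0 lower, against 8.15% and 9.92% of all genes, with a median change of 0.78. Kifc1, a motor that gathers spindle poles, had levels of 10.16, 9.94 and 9.74 in GFP-positive cells, against 9.13, 9.03 and 8.76 in GFP-negative cells. The groups did not overlap, with a change of 0.97 (SE 0.15, adjusted p = 0.0104), from a probe set whose suffix allows matches to more than 1 transcript. Its near-identical relative Kifc5b had a change of 0.48 (adjusted p = 0.270). Cenpe, which carries chromosomes to the spindle equator, had levels of 9.78, 10.38 and 9.91 in GFP-positive cells, against 9.37, 9.19 and 9.17 in GFP-negative cells. All GFP-positive arrays were higher, with a change of 0.78 (SE 0.17, adjusted p = 0.0329) and both probe sets called. The Cenpe call was lost without GFP-negative array 1, 2 or 3 (adjusted p = 0.0595, 0.101 and 0.107) and without GFP-positive array 3 (0.0676). Kifc2, a motor described in mouse neurons, had levels of 6.55, 6.70 and 6.56 in GFP-positive cells, against 5.33, 5.09 and 4.88 in GFP-negative cells. The change was 1.51 (SE 0.13, adjusted p = 0.0017), with 1 of 2 Kifc2 probe sets called. The called one was below the array median in GFP-negative cells, and the other gave 0.30 (adjusted p = 0.138). Kifc3 had a change of -0.29 (adjusted p = 0.208). Without both arrays that held antibody transcripts, Kifc2 remained called (adjusted p = 0.0260), while Kifc1 (0.0620) and Cenpe (0.105) did not.

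Transcripts of proteins that work with mitotic kinesins were read out from a list of 21 measured genes. The list also holds general cell cycle genes such as Mki67, Top2a, Cdk1, Foxm1 and Mybl2. Of these, 10 were called higher and 0 lower, against 8.15% and 9.92% of all genes. All 21 had changes above 0, and the median change was 0.44, against 0.11 for all genes, of which 64.6% had changes above 0. At an unadjusted p under 0.05, 16 were higher and 0 lower, against 22.0% and 15.1% of all genes. Plk1, a kinase that recruits several of these motors, had the largest change, 1.39 (SE 0.13, adjusted p = 0.00194), and was called with any single array left out. Aurka, the spindle pole kinase, had a change of 1.13 (adjusted p = 0.0107). The spindle protein Hmmr had a change of 0.92 (adjusted p = 0.0249), and the cell cycle transcription factor Mybl2 had one of 0.81 (adjusted p = 0.0185). Aurka and Mybl2 each had 1 of 2 probe sets called, and Hmmr had 4 of 5. The second probe sets of Aurka and Mybl2 gave 0.41 and 0.38 (adjusted p = 0.0737 and 0.0959). Hmmr was called in 2 of the 6 comparisons that left out 1 array, with an adjusted p up to 0.0887, and Mybl2 also in 2 of 6, with an adjusted p up to 0.0688. Kif14's binding partner Cit, named after its value was seen, had a change of 0.61 (adjusted p = 0.00685), which was not called without both arrays that held antibody transcripts (0.0687). Without those arrays Plk1 remained called (0.0238), and Aurka (0.0725), Hmmr (0.0805) and Mybl2 (0.0549) did not. Kif23's partner Racgap1, also named afterwards, had a change of 0.18 and did not pass (adjusted p = 0.390), as Kif23 itself did not.

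The light chains and cargo adaptors of transport kinesins held calls in both directions. Of 17 measured genes, 1 was called higher and 4 lower, against 8.15% and 9.92% of all genes, and the median change was 0.12. The 4 lower were Dennd5b at -1.65 (adjusted p = 0.0426), Klc4 at -0.91 (adjusted p = 0.00957), Madd at -0.72 (adjusted p = 0.0204) and Kifap3 at -0.53 (adjusted p = 0.0368). Klc4 is a kinesin light chain, Madd an adaptor for vesicle kinesins, and Kifap3 the subunit that joins Kif3a and Kif3b to cargo. Kifap3 had levels of 10.81, 10.67 and 10.43 in GFP-positive cells, against 11.13, 11.13 and 11.25 in GFP-negative cells, without overlap. Thus Kifap3 was called lower where the changes of its partners Kif3a and Kif3b were above 0 and not called. Klc4 was called with any single array left out, while Dennd5b and Madd were called in 2 of 6 such comparisons and Kifap3 in 1 of 6, with adjusted p-values up to 0.120, 0.0645 and 0.120. Without both arrays that held antibody transcripts, Klc4 remained called (0.0495) and the other 3 did not, with adjusted p-values of 0.0577 to 0.105. Each of the 4 had 1 probe set called, of 4 for Dennd5b and of 2 for the others. The called Dennd5b probe set was below the array median on every GFP-positive array, and its other probe sets gave -0.13, -0.34 and -0.09. The second probe sets of Klc4 and Madd had changes above 0, at 0.34 and 0.14, neither called, and with all probe sets averaged neither gene was called (Klc4 -0.29, adjusted p = 0.0933; Madd -0.29, adjusted p = 0.243). The 1 higher gene was the adaptor Mapk8ip1, at 0.45 (adjusted p = 0.0182). That probe set was below the array median on every array, and the other of its 2 probe sets is not given here.

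Dynein, the motor that runs the opposite way along microtubules, and its activator dynactin were taken as a comparison. Of 20 measured subunits and regulators, 0 were called higher and 0 lower by limma, against 8.15% and 9.92% of all genes. At an unadjusted p under 0.05, 1 was higher and 1 lower, against 22.0% and 15.1% of all genes, and the median change was 0.09. Dynll1, a dynein light chain, had a change of 0.18 (adjusted p = 0.223), and Dctn4, a dynactin subunit, had one of -0.04 (adjusted p = 0.778). Dctn4 turned to 0.038 when array medians were subtracted, and Dynll1 was called (adjusted p = 0.0339) when the prior variance followed intensity.

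**Figure D4:**
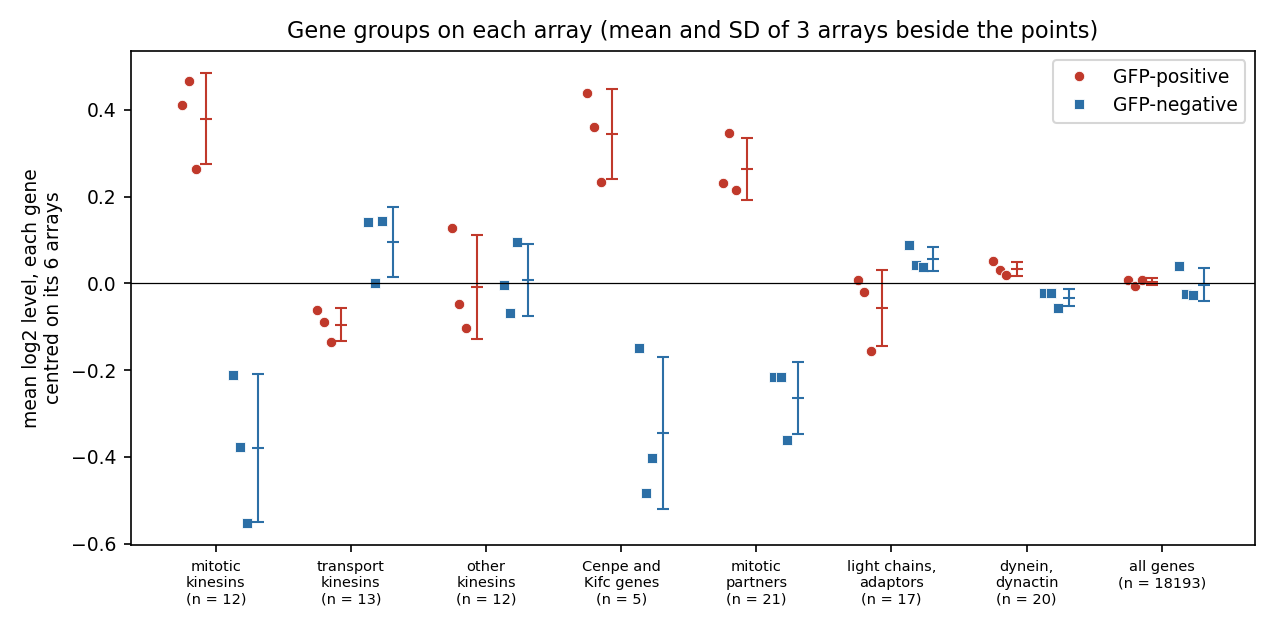
Mean log2 level of each gene group on each array, with every gene centred on its own mean over the 6 arrays, GFP-positive as circles and GFP-negative as squares, and bars for mean and SD of 3 arrays. Mitotic kinesins lie at 0.26 to 0.47 in GFP-positive cells and -0.55 to -0.21 in GFP-negative cells, and transport kinesins at -0.14 to -0.06 in GFP-positive cells and 0.00 to 0.14 in GFP-negative cells. The transport mean includes Kif17, with a change of -1.90, while the median transport change was 0.02.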

How the data were processed

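RNA of 6 sorted samples, 5 ng each per the labels, was amplified, biotin-labelled and hybridized to Affymetrix arrays. The authors deposited linear intensity values per probe set, made with RMA per the submitters' processing notes, which here hold neither its version and settings nor how the linear scale was restored. The deposited intensity values were converted to log2 and not normalized again. Of 45101 probe sets, 45037 remained after 64 controls were removed, and these were fitted with lmFit and eBayes of limma 3.58.1 under R 4.3.3 (no covariate, 2-sided), with Benjamini-Hochberg adjustment over all of them and a threshold of 0.05. The fit had 6.38 degrees of freedom in total, 2.38 of them prior. It was tested on simulated data.

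Genes came from GEO's platform annotation, which names 1 gene for 34945 probe sets, several for 932 and none for 9160; 1 kinesin probe set that also names another gene was left out. Array medians were 59.9 to 64.8, and precision is limited by how few arrays there are. No depth or detection call was used. Per-array values are given for called kinesins and the 4 of highest mean in each role class, and for some others. Of each partner list, up to 4 called genes of largest change are named, or the 2 of highest mean. The members, role classes, partner and marker lists and tests were chosen with earlier results of these data known. Alternatives were other normalizations, filters, probe set rules, priors, class boundaries, a replicate block and left-out arrays. Tables and plots used Python 3.11.15, pandas 2.3.3, numpy 2.4.6 and matplotlib 3.10.9.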

Additional observations from a re-analysis of the deposited data

How the results depend on the processing

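Calls of mitotic kinesins kept their direction under every setting in which the same probe sets were used, and their number depended on the number of arrays and the strictness of the test. With 1 array left out at a time, 6 to 8 kinesins were higher, all of them mitotic, and 2 to 3 were lower, 1 to 2 of them transport kinesins. The same comparisons gave 5 to 12 partner genes higher and 1 to 4 lower, 1212 to 2243 probe sets higher and 2192 to 3098 lower, a mitotic median of 0.64 to 0.78, a transport median of -0.14 to 0.074, a class difference of 0.57 to 0.91, and a Kif5b change of -0.14 to 0.21. Without both arrays that held antibody transcripts, 2 kinesins were higher, both mitotic, with 2 partner genes higher and 1 lower, and 681 probe sets higher and 1652 lower; fewer arrays entered that fit. Against a fold floor of 1.5, which asks for a larger effect, 1 kinesin was higher, a mitotic one, and 1 lower, 2 partner genes were higher and 0 lower, and 348 probe sets were higher and 954 lower. Among the 22518 brightest probe sets, with 26 kinesins, 2 transport kinesins were lower, the transport median was -0.42 and the class difference 1.16. Among the 11259 brightest, with 12 kinesins, 4 kinesins were higher, all 4 mitotic, 0 were lower, 0 of them transport, the transport median was -0.44, the class difference was 1.05 and 1892 probe sets were lower. With Kif2a counted as mitotic and Kif21a and Kif21b as transport kinesins, 2 transport kinesins were lower, the median was -0.42 and the difference 1.13. With array medians subtracted, 1 transport kinesin was higher, the transport median was 0.10, Dctn4 turned to 0.038, 5218 probe sets were higher, and 60.8% of called genes were higher in place of 45.1%; the cause was not tested. Repeated quantile normalization also gave 1 transport kinesin higher, with 50.1% of called genes higher, and array weights gave 2 transport kinesins lower. With all probe sets of a gene averaged, 1 transport kinesin was higher and 2 lower, 2 partner genes were lower and the transport median was -0.10. With each gene's most variable probe set, the transport median was -0.22, the difference 1.07, Kif5b -0.36, Kif20b -0.13 and Kif3c 0.016, each through another probe set. The replicate number as a block gave 8 kinesins higher and 2 lower and 1969 probe sets higher and 2872 lower; Kif15 was then called (adjusted p = 0.0432) and Kif4 was not (0.0751), nor were Cenpe (0.0756), Kifap3 (0.0870) and Mybl2 (0.0667). Deviations of samples with the same number correlated at 0.02, 0.05 and 0.02, each the highest for its GFP-positive sample, and those with different numbers at -0.04 to 0.02. All were close to 0, and the labels do not say that numbers pair, so whether the samples are paired was not settled. Slide, scan date and background correction were not analysed here, since the values are already processed.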
